A study of Phaseolus vulgaris with 18 samples.

Results

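The genes described here are 3 enzymes of chlorophyll breakdown in common bean (Phaseolus vulgaris), chosen by gene name from the 25124 genes of the deposited table. Phvul.011G013400 is annotated as pheophytinase, Phvul.007G278100 as chlorophyllase 2 and Phvul.011G086700 as pheophorbide a oxygenase. All 3 of the 3 passed the filter on low counts, which kept 22805 genes. No sequence is shown, and the files give no coordinates for them.

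RNA was sequenced from A18-1, the golden line, in which maturing pods gradually lose green color and become gold, and from Renaya, the green line, in which pods keep their green color up to ripening. The design text attributes the golden pods of A18-1 to a gene it calls pv-ye. Pod walls were taken at 10, 14 and 18 days after flowering (DAF) from plants in a climate chamber with no treatment, 3 libraries per line and age, which makes 6 groups and 18 libraries. The design text calls the replicates independent biological repeats and names pod wall, while a tissue field of the same labels gives leaf, and this was not resolved. The golden trait and the rest of the line's genotype cannot be told apart in these groups.

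Chlorophyll a is degraded in the plastid after its magnesium is removed by the stay-green protein, which yields pheophytin a. Pheophytinase cuts the phytol tail from pheophytin a to give pheophorbide a, and chlorophyllase cuts the same bond in chlorophyll itself. Pheophorbide a oxygenase then opens the ring, and the green color is lost. In Arabidopsis leaves pheophytinase, not chlorophyllase, carries the phytol removal of senescence.

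Total counts per library ran from 48757139 to 74377200. Replicate 2 of the golden line at 18 DAF had the lowest mean correlation with its replicates of the 18, 0.932, close to 0.937 in replicate 1 of that group. In golden replicate 2 of 18 DAF the summed level of 34 photosystem and antenna genes was 43968 FPKM (the authors' fragment counts scaled by transcript length and library depth). In replicates 1 and 3 it was 20004 and 22109 FPKM. Green replicate 3 of 18 DAF also departed in that sum, with 6553 FPKM against 13930 and 13020 FPKM, and the gene lists were not recounted without it. Differences of the 3 enzymes between the lines at 18 DAF, and the counts of the gene lists at that age, are given with and without golden replicate 2. The summed level of the 3 genes annotated as AGAMOUS-like 8, a fruit identity factor, was above 0 in all 18 libraries and moved with the lines. Most of it came from Phvul.009G203400 (30.1 to 222 FPKM), since the others reached at most 0.227 and 6.41 FPKM. At 10 DAF the sum was 91.0 to 127 FPKM in golden and 42.3 to 68.0 FPKM in green, and at 14 DAF 128 to 224 and 30.9 to 59.0 FPKM, without overlap at either age. At 18 DAF it was 43.8, 166 and 81.2 FPKM in golden replicates 1, 2 and 3 and 69.0, 69.6 and 40.8 FPKM in green ones, which overlapped. At 10 and 14 DAF these levels were higher in golden, as those of the 3 enzymes were, and their part in the results was not tested. Summed levels of 31 fruit genes were 890 to 1330 FPKM in golden and 594 to 1063 FPKM in green libraries.

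All 3 enzymes had higher transcript levels in the golden than in the green line when the ages were averaged. Pheophytinase was 6.40-fold higher (log2 difference 2.68, SE 0.47, adjusted p = 2.7e-04), chlorophyllase 2 was 4.68-fold higher (2.23, SE 0.17, adjusted p = 2.5e-07) and pheophorbide a oxygenase was 1.75-fold higher (0.81, SE 0.17, adjusted p = 0.0012). These are edgeR quasi-likelihood tests on counts with 9 libraries per line and p-values adjusted by the Benjamini-Hochberg method over all 22805 genes. A gene is called changed at an adjusted p under 0.05. Of all tested genes, 26.5% were called higher in golden in the same comparison. By age, 2 of the 3 were called higher at 10 DAF, beside 17.1% of all genes, 3 of the 3 at 14 DAF, beside 20.4%, and 1 of the 3 at 18 DAF, beside 7.99%. In these bulk samples, fewer cells of a type and less RNA per cell cannot be told apart.

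**Figure D1:**
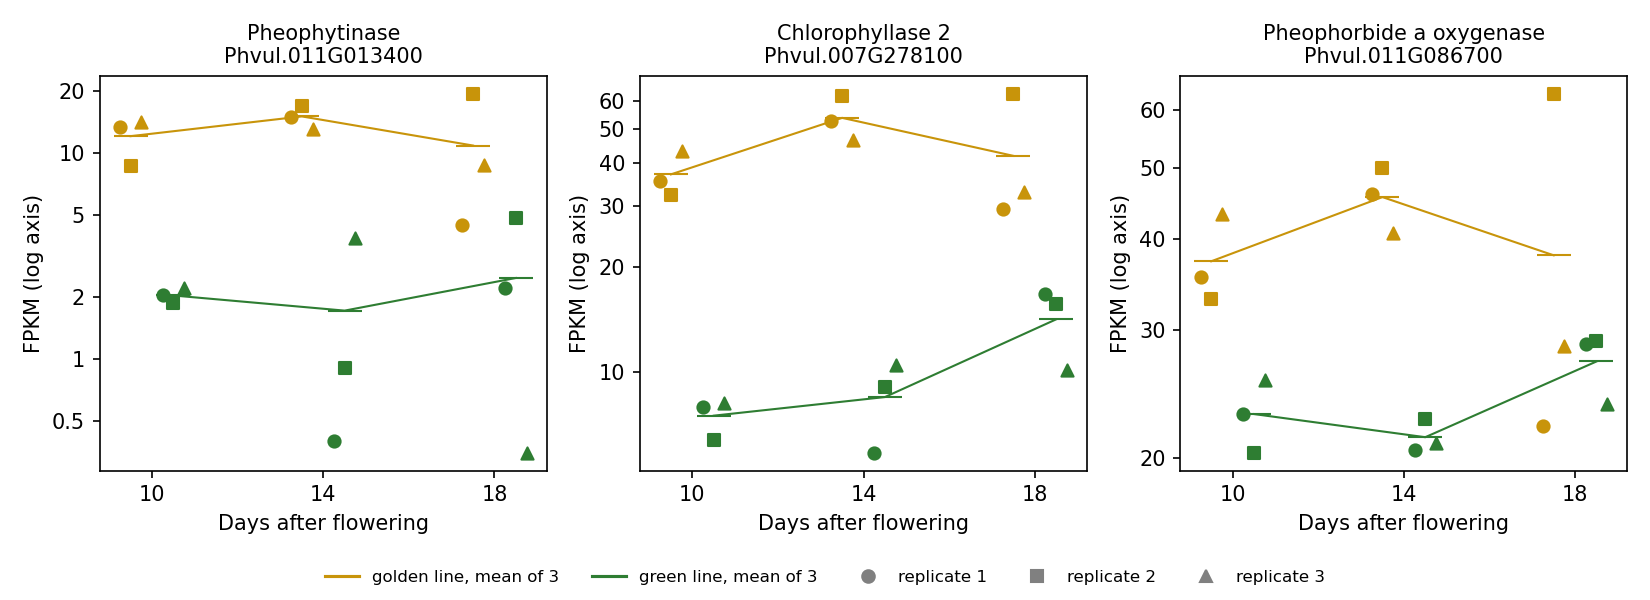
FPKM (log axis) of the 3 enzymes by days after flowering, with 1 point per library, the marker shape giving the replicate number, and a line joining the group means of 3 libraries. Golden points lie above green ones at every age for chlorophyllase 2, while golden and green points overlap at 18 DAF for pheophytinase and pheophorbide a oxygenase.

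Pheophytinase, which acts on magnesium-free chlorophyll, was at 13.4, 8.69 and 14.1 FPKM in the golden libraries at 10 DAF, replicates 1, 2 and 3 in order. The green libraries of that age were at 2.04, 1.87 and 2.20 FPKM. The groups did not overlap, and the golden line was 5.95-fold higher (log2 difference 2.57, SE 0.81, adjusted p = 0.024 by edgeR's quasi-likelihood test). At 14 DAF the golden libraries were at 15.05, 17.0 and 13.2 FPKM and the green ones at 0.400, 0.902 and 3.85 FPKM. Green replicate 3 lay above the other green libraries, yet every golden library lay above it, and the golden line was 8.89-fold higher (3.15, SE 0.83, adjusted p = 0.0076). At 18 DAF the golden libraries were at 4.50, 19.4 and 8.73 FPKM and the green ones at 2.22, 4.85 and 0.351 FPKM. In FPKM golden replicate 1 lay below green replicate 2, so the groups overlapped. This depended on the scaling. In CPM (counts scaled by library depth and TMM, as in the count test) golden replicate 1 was at 8.78 and green replicate 2 at 8.29. On that scale the groups did not overlap. The 4.94-fold difference at 18 DAF did not pass the threshold in edgeR (2.31, SE 0.80, adjusted p = 0.066), while DESeq2 (adjusted p = 0.014) and limma on log2(FPKM + 1) (adjusted p = 0.041) called it. Of the 9 other settings tried, 6 did not call it, limma on log2(FPKM + 0.1) among them (adjusted p up to 0.24 over these edgeR and limma fits).

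The pheophytinase call at 10 DAF was lost when any one of 5 of the 6 libraries of that age was left out, all but golden replicate 2. The adjusted p was then 0.053 to 0.078 by edgeR's quasi-likelihood test, and the log2 difference was 2.44 to 2.77 over all 18 omissions. In the 9 other settings tried the call held. The log2 difference was then 2.08 to 2.60, with adjusted p up to 0.033 over edgeR, DESeq2 and limma fits. The call at 14 DAF held in each of the 18 omissions (log2 difference 2.70 to 4.45, adjusted p up to 0.034 by edgeR's quasi-likelihood test), the larger value without green replicate 3 of that age. At 18 DAF the difference was 1.53 without golden replicate 2 (adjusted p = 0.23) and 3.21 without green replicate 2 (adjusted p = 0.037). Leaving out golden replicate 1 of 18 DAF (adjusted p = 0.042), green replicate 1 of 14 DAF (0.049) or green replicate 3 of 14 DAF (0.036) also brought it past the threshold. The averaged difference between the lines passed in every omission.

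Chlorophyllase 2, which removes phytol from chlorophyll, was at 35.4, 32.4 and 43.3 FPKM in the golden libraries at 10 DAF and at 7.94, 6.38 and 8.15 FPKM in the green ones. At 14 DAF the golden libraries were at 52.7, 62.2 and 46.5 FPKM and the green ones at 5.87, 9.06 and 10.5 FPKM. At 18 DAF they were at 29.4, 63.1 and 33.0 FPKM in golden and at 16.7, 15.7 and 10.1 FPKM in green. No green library of any age reached the lowest golden library, replicate 1 at 18 DAF. The golden line was 4.96-fold higher at 10 DAF (log2 difference 2.31, SE 0.30, adjusted p = 8.9e-05), 6.31-fold at 14 DAF (2.66, SE 0.31, adjusted p = 4.3e-05) and 3.27-fold at 18 DAF (1.71, SE 0.29, adjusted p = 0.0015). Without golden replicate 2 the difference at 18 DAF was 1.24 (SE 0.23, adjusted p = 0.0032), so the call held at a smaller size. All 3 calls held in each omission of 1 library by edgeR's quasi-likelihood test, and the one at 18 DAF was lost when only the 2 groups of that age were fitted (1.73, adjusted p = 0.070).

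Pheophorbide a oxygenase, which opens the ring, was at 35.4, 33.0 and 43.3 FPKM in the golden libraries at 10 DAF and at 23.0, 20.4 and 25.6 FPKM in the green ones. The groups did not overlap, yet the 1.63-fold difference did not pass the threshold (log2 difference 0.70, SE 0.29, adjusted p = 0.079). At 14 DAF the golden libraries were at 46.1, 50.0 and 40.8 FPKM and the green ones at 20.5, 22.6 and 21.0 FPKM, again without overlap. This 2.11-fold difference passed (1.07, SE 0.30, adjusted p = 0.0098) and held in every omission. At 18 DAF the golden libraries were at 22.1, 63.3 and 28.5 FPKM, and the green ones at 28.7, 29.0 and 23.8 FPKM. In FPKM golden replicates 1 and 3 lay among or below the green libraries and replicate 2 lay above all of them. In CPM golden replicate 3 (53.32) lay just above the highest green library, replicate 1 (53.28). Golden replicate 1 (44.90) lay just above the lowest green library, replicate 3 (44.57), so the groups overlapped on that scale too. The 1.56-fold difference at 18 DAF did not pass (0.64, SE 0.29, adjusted p = 0.16), and without golden replicate 2 it was 0.00 (SE 0.15, adjusted p = 1.0 by edgeR's quasi-likelihood test).

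For Phvul.011G086700 the other omissions also moved calls. Without golden replicate 1 of 18 DAF the difference at that age was 0.91 and passed (adjusted p = 0.032). The difference at 10 DAF passed without golden replicate 1 of 18 DAF (adjusted p = 0.037) and without golden replicate 2 of 18 DAF (adjusted p = 0.0016), libraries that enter it only through the spread shared by the 6 groups. The 10 DAF value also passed when only the groups of that age were fitted (adjusted p = 0.0055 by edgeR's quasi-likelihood test).

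**Figure D2:**
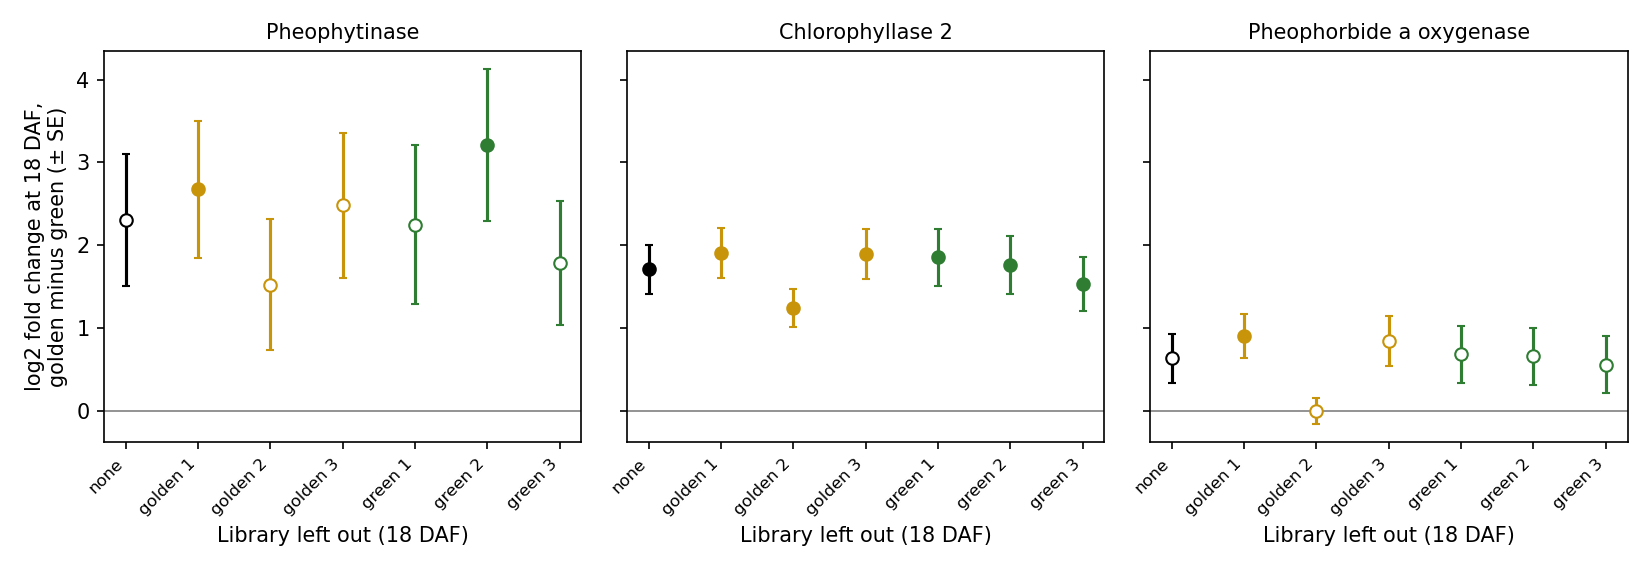
Log2 fold change between golden and green at 18 DAF (± SE) for each enzyme, with all libraries (none) and with each of the 6 libraries of that age left out; filled points have an adjusted p under 0.05. Leaving out golden replicate 2 gives the lowest value for each enzyme, 1.53, 1.24 and 0.00.

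With all libraries fitted, the levels moved less with age than between the lines. Without golden replicate 2 of 18 DAF this did not hold for pheophorbide a oxygenase at 18 DAF. Its log2 difference between the lines was then 0.00 at that age, and its golden change from 14 to 18 DAF was -0.70. From 10 to 18 DAF in the golden line, 0 of the 3 genes were called by edgeR's quasi-likelihood test, beside 20.7% of all genes in either direction, and 0 had an unadjusted p under 0.05 or were called by DESeq2 or by limma on log2(FPKM + 1). Mean levels ± SD of 3 golden libraries at 10, 14 and 18 DAF were 12.1 ± 2.97, 15.1 ± 1.94 and 10.9 ± 7.70 FPKM for pheophytinase. They were 37.0 ± 5.66, 53.8 ± 7.88 and 41.8 ± 18.5 FPKM for chlorophyllase 2, and 37.3 ± 5.37, 45.6 ± 4.63 and 38.0 ± 22.1 FPKM for pheophorbide a oxygenase. Each mean was highest at 14 DAF. The 3 golden libraries at 14 DAF all lay above those at 10 DAF for chlorophyllase 2, a difference that did not pass (log2 difference 0.52, SE 0.29, adjusted p = 0.34). The SD at 18 DAF was the largest of the golden ages for each gene.

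In the green line, chlorophyllase 2 rose from 10 to 18 DAF by 1.97-fold (log2 difference 0.98, SE 0.29, adjusted p = 0.018), and the libraries of those ages did not overlap. It was the 1 of 3 members called higher, beside 19.3% of all genes. The call was lost without green replicate 2 of 10 DAF (adjusted p = 0.083) or green replicate 1 of 18 DAF (adjusted p = 0.073), with values of 0.82 to 1.16 over the omissions. Green means were 7.49 ± 0.965, 8.47 ± 2.37 and 14.2 ± 3.55 FPKM for this gene in order of age. They were 2.03 ± 0.169, 1.72 ± 1.86 and 2.47 ± 2.26 FPKM for pheophytinase and 23.0 ± 2.62, 21.4 ± 1.11 and 27.2 ± 2.94 FPKM for pheophorbide a oxygenase. Neither of those differences from 10 to 18 DAF passed (0.32, SE 0.77, adjusted p = 0.78, and 0.30, SE 0.29, adjusted p = 0.46, by edgeR's quasi-likelihood test).

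Between adjacent ages, 0 of the 3 members were called by edgeR in either line. From 10 to 14 DAF the share of all genes called in either direction was 1.30% in golden and 8.27% in green, and 0 members had an unadjusted p under 0.05. From 14 to 18 DAF it was 10.6% in golden and 6.95% in green, and 1 member, chlorophyllase 2 in green, had an unadjusted p under 0.05 (log2 difference 0.80, SE 0.29, adjusted p = 0.10). DESeq2 and limma called 0 of the 3 in each of these. Without golden replicate 2 of 18 DAF, pheophorbide a oxygenase was called lower from 14 to 18 DAF in golden (fell by 0.70 on the log2 scale, SE 0.16, adjusted p = 0.010), and chlorophyllase 2 was called higher in green (0.79, adjusted p = 0.031).

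The test of whether the lines changed differently with age called 0 of the 3 members by edgeR. All genes called in either direction were 1.15% for 10 to 14 DAF, 7.38% for 14 to 18 DAF and 9.90% for 10 to 18 DAF. For 10 to 18 DAF, the golden change minus the green change was -0.27 (log2, SE 1.08, adjusted p = 0.91) for pheophytinase, -0.60 (SE 0.41, adjusted p = 0.37) for chlorophyllase 2 and -0.07 (SE 0.41, adjusted p = 0.95) for pheophorbide a oxygenase. An unadjusted p under 0.05 was met by 1 of the 3, chlorophyllase 2 from 14 to 18 DAF (-0.95, SE 0.41, adjusted p = 0.16), and DESeq2 and limma called 0. These results turned on golden replicate 2 of 18 DAF. Without it the change from 10 to 18 DAF was called lower in golden than in green for chlorophyllase 2 (-1.06, SE 0.31, adjusted p = 0.037) and for pheophorbide a oxygenase (-0.70, SE 0.21, adjusted p = 0.037). Without it the change from 14 to 18 DAF was -1.43 (adjusted p = 0.011) and -1.08 (adjusted p = 0.0059) for the same genes by edgeR's quasi-likelihood test.

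Ordered by mean FPKM, golden 14 DAF was the highest group for each enzyme, and the 3 golden groups lay above the 3 green groups. The green order was 18, 10 and 14 DAF for pheophytinase and pheophorbide a oxygenase, and 18, 14 and 10 DAF for chlorophyllase 2. Among neighbours in these orders, chlorophyllase 2 in golden at 10 DAF against green at 18 DAF passed the test (log2 difference 1.34, SE 0.29, adjusted p = 0.0053). The same step for pheophorbide a oxygenase, whose libraries also did not overlap, did not pass (0.41, SE 0.29, adjusted p = 0.33). For pheophytinase the step from golden to green joined golden and green at 18 DAF, given above. The other neighbours of each order overlapped and did not pass by edgeR's quasi-likelihood test.

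FPKM is scaled per length, so levels can be set side by side between genes. Chlorophyllase 2 and pheophorbide a oxygenase had nearly equal FPKM in the golden line, with ratios of 0.980 to 1.33 and a median of 1.14 over 9 libraries. In the green line chlorophyllase 2 was the lower of the pair in all 9 libraries, with ratios of 0.286 to 0.582 and a median of 0.400. The ranges did not overlap, and the mean log2 ratio differed by 1.46 between the lines (exact two-sided permutation test of line labels within each age, p = 0.00025, the smallest that the 8000 permutations can give, adjusted p = 0.00033 over 4 ratios). Pheophytinase over pheophorbide a oxygenase was 0.203 to 0.380 in golden and 0.0148 to 0.184 in green, also without overlap (difference 2.24, exact permutation p = 0.00025, adjusted p = 0.00033). Pheophytinase over chlorophyllase 2 was 0.153 to 0.380 in golden and 0.0346 to 0.367 in green, which overlapped (difference 0.78, exact permutation p = 0.071). Without golden replicate 2 of 18 DAF the 3 differences were 1.498, 2.207 and 0.7096 in the same order (exact permutation p = 0.00025, 0.001 and 0.128, unadjusted, over 4000 permutations). These ratio tests were added after the values had been seen.

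**Figure D3:**
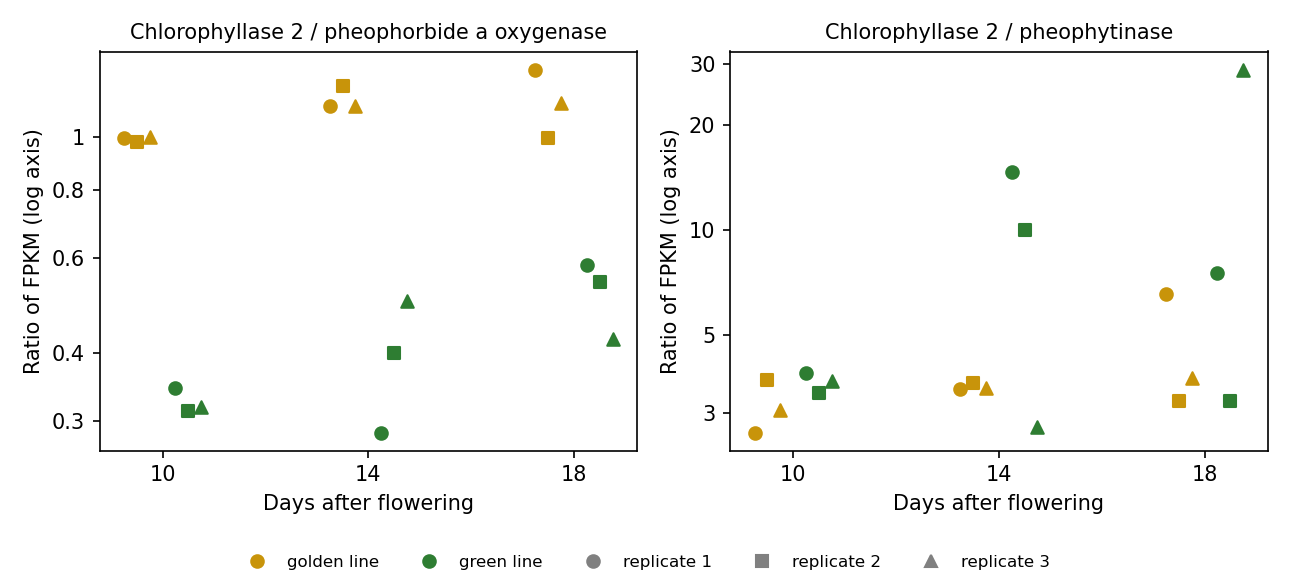
Ratio of FPKM of chlorophyllase 2 to pheophorbide a oxygenase (left) and to pheophytinase (right) in each library by days after flowering, on log axes. The left ratio is 0.980 to 1.33 in golden and 0.286 to 0.582 in green, while the right one overlaps between the lines and reaches 28.9 in a green library at 18 DAF.

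The spread within groups was largest for pheophytinase in the green line. At 14 DAF the green libraries ran from 0.400 to 3.85 FPKM, and at 18 DAF from 0.351 to 4.85 FPKM, whereas at 10 DAF they ran from 1.87 to 2.20 FPKM. The counts behind its levels were 38 to 2198 per library, against 421 to 5290 for chlorophyllase 2 and 2007 to 6964 for pheophorbide a oxygenase. Chlorophyllase 2 was in the same order as pheophytinase in green at 14 DAF, with 5.87, 9.06 and 10.5 FPKM, while pheophorbide a oxygenase was at 20.5, 22.6 and 21.0 FPKM. In green at 18 DAF replicate 3 was the lowest library for all 3 genes. Its summed antenna level was 6553 FPKM, against 13930 and 13020 FPKM in replicates 1 and 2. The part of this library difference in the results was not tested.

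**Figure D4:**
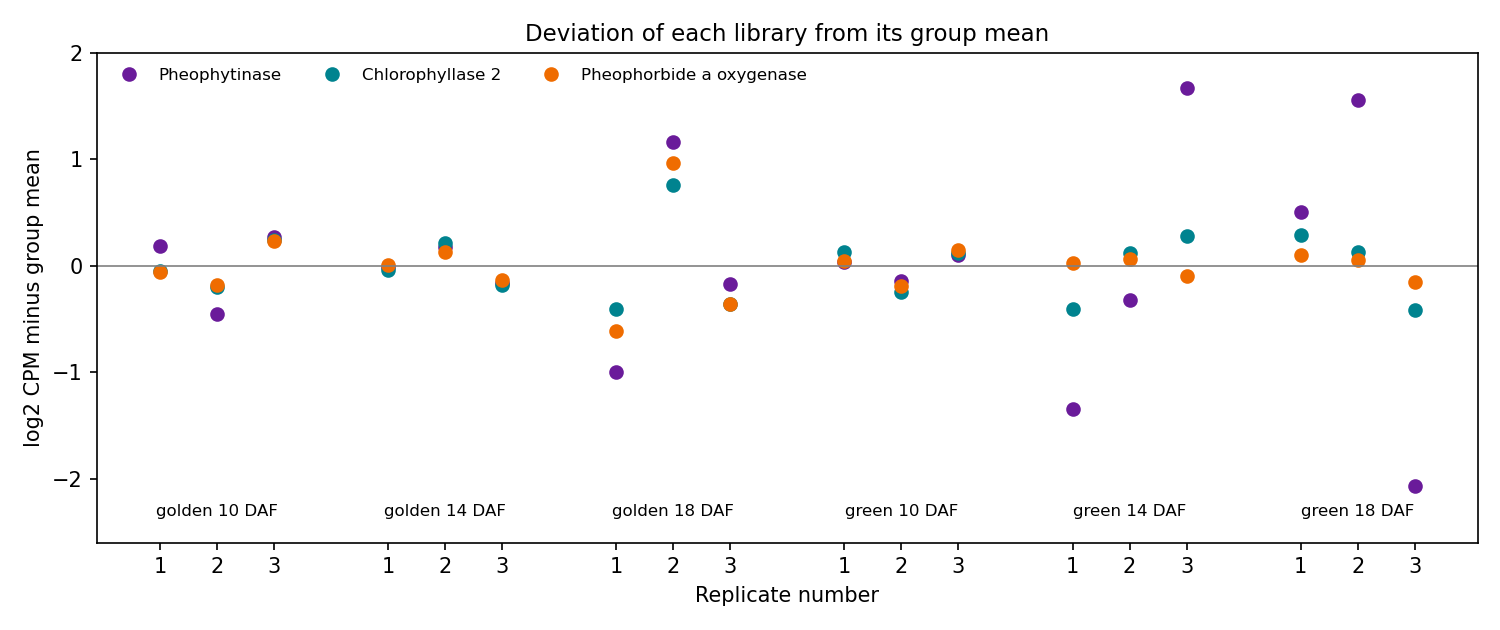
Deviation of each library from its group mean (log2 counts scaled to library size) for the 3 enzymes, by group and replicate number. Within golden 18 DAF, replicate 2 lies highest of the 3 libraries for each enzyme, and pheophytinase spreads most in green at 14 and 18 DAF.

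Over the 18 libraries the log2 levels of the enzymes moved together, which is a description, since all 3 differ between the lines and come from the same libraries. Pearson's r was 0.889 between pheophytinase and chlorophyllase 2, 0.890 between chlorophyllase 2 and pheophorbide a oxygenase and 0.791 between pheophytinase and pheophorbide a oxygenase. After group means were subtracted, r was 0.774, 0.838 and 0.460 for these pairs. The gene most like pheophytinase of 18735 compared was Phvul.010G110000, which has no description (r = 0.980, 0.957 within groups, 18 libraries). Next were Phvul.003G274100 (a DUF827 protein, 0.977), Phvul.007G113800 (an alpha/beta-hydrolase, 0.976), Phvul.009G133900 (thioredoxin M-type 4, 0.969) and Phvul.002G183200 (inorganic carbon transport protein-related, 0.968).

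The genes most like chlorophyllase 2 were Phvul.007G094800 (an acyl-CoA N-acyltransferase, r = 0.986) and Phvul.004G034000 (casein lytic proteinase B3, 0.985). They were followed by Phvul.008G133800 (no description, 0.985), Phvul.009G011100 (catalase 2, which breaks down hydrogen peroxide, 0.982) and Phvul.003G064400 (a tetratricopeptide repeat protein, 0.980). Catalase 2 was at 220 to 552 FPKM in golden and 103 to 213 FPKM in green libraries. Those most like pheophorbide a oxygenase were Phvul.002G216800 (peroxisomal NAD-malate dehydrogenase 2, 0.972), Phvul.006G169600 (a MADS-box factor, 0.969) and Phvul.009G143000 (a RING/U-box protein, 0.963). Phvul.009G091200 (cysteinyl-tRNA synthetase, 0.963) and Phvul.002G150800 (alanine-2-oxoglutarate aminotransferase 2, 0.961) came next. Peroxisomal NAD-malate dehydrogenase 2 was at 69.8 to 151 FPKM in golden and 57.6 to 85.8 FPKM in green.

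The rest of the pathway was read from 12 other genes whose descriptions match a set of protein names tied to it. For Phvul.007G238800, described as an F420 hydrogenase family member, and Phvul.009G086000, described as a translocon protein, the tie is not in the description but in the orthology term and in background knowledge. Of these, 2 (Phvul.008G161000 and Phvul.008G167850) are described as pheophorbide a oxygenase family but carry the table's orthology term of chlorophyllide a oxygenase, a synthesis enzyme, and were set aside after this was seen. Of the other 10, 4 were called higher in golden at 10 DAF, 8 at 14 DAF and 4 at 18 DAF, and 0 were called lower at a single age by edgeR. Of all tested genes, 17.1%, 20.4% and 7.99% were called higher at these ages and 15.5%, 21.2% and 6.99% lower. The median log2 difference of the 10 was 0.55, 1.29 and 0.33 at the 3 ages, beside 0.02, -0.01 and -0.02 over all tested genes. Without golden replicate 2 of 18 DAF, 2 of the 10 were called higher at that age, with a median of 0.03, beside 6.57% of all genes called higher and 5.90% lower. With the 2 genes set aside included, 4, 9 and 6 of 12 were called higher in the fit of all libraries. DESeq2 called 4, 8 and 4 of the 10, limma on log2(FPKM + 1) called 4, 8 and 2, and an unadjusted p under 0.05 was met by 5, 8 and 4.

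The stay-green gene Phvul.002G153100, annotated as non-yellowing 1 and upstream of pheophytinase, was at 74.6, 94.2 and 80.7 FPKM in golden and at 6.27, 6.36 and 4.80 FPKM in green at 10 DAF. At 14 DAF it was at 68.5, 84.8 and 109 FPKM in golden and 9.19, 16.7 and 30.3 FPKM in green, and at 18 DAF at 62.3, 114 and 73.3 FPKM and 26.1, 43.4 and 24.5 FPKM. The groups never overlapped, and the log2 difference between the lines was 3.84 (SE 0.39, adjusted p = 1.1e-05), 2.23 (SE 0.36, adjusted p = 4.0e-04) and 1.56 (SE 0.35, adjusted p = 0.0087). It rose in green from 10 to 18 DAF by 5.57-fold (2.48, SE 0.37, adjusted p = 2.3e-04 by edgeR's quasi-likelihood test). The golden change from 10 to 18 DAF was lower than the green one (-2.28, SE 0.50, adjusted p = 0.011).

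The second pheophytinase gene, Phvul.005G035700, was not called different between the lines at any age. It was at 11.6, 11.3 and 11.8 FPKM in golden and 11.3, 10.1 and 10.6 FPKM in green at 10 DAF, with a log2 difference of 0.13 (SE 0.23, adjusted p = 0.70). At 14 and 18 DAF the difference was 0.40 (SE 0.23, adjusted p = 0.18) and 0.29 (SE 0.23, adjusted p = 0.44). In green Phvul.011G013400 was the lower of the pair in each library, with a ratio of 0.0339 to 0.364, against 0.486 to 1.20 in golden (mean log2 ratio difference 2.74, exact permutation p = 0.00025, adjusted p = 0.00033 over 4 ratios). How reads of similar copies were shared between them is not given in the sources used here. The second chlorophyllase gene, Phvul.004G154100, annotated as chlorophyllase 1, was at 0 to 0.154 FPKM in golden libraries and 0 to 1.42 FPKM in green ones. It was called lower in golden over the averaged ages (adjusted p = 0.019 by edgeR's quasi-likelihood test), where 5 of 9 libraries were listed at 0.

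Around pheophorbide a oxygenase, 3 more genes carry its orthology term in the table. The gene Phvul.009G086000, annotated as TIC55-II, had log2 differences of 1.31, 1.94 and 1.14 at 10, 14 and 18 DAF, all called (adjusted p = 0.013, 0.0010 and 0.045). TIC55 hydroxylates a later breakdown product in Arabidopsis. The ACD1-like gene Phvul.002G236700 had differences of 1.18, 1.98 and 1.59 (adjusted p = 0.038, 0.0021 and 0.018), and its neighbour in name Phvul.002G236600 had 0.62, 1.53 and 0.17, with the value at 14 DAF called (adjusted p = 0.0052). The gene Phvul.007G238800, whose orthology term is 7-hydroxymethyl chlorophyll a reductase, an enzyme of the conversion of chlorophyll b to a, had 0.75, 1.55 and 0.82 (adjusted p = 0.0095, 9.2e-05 and 0.012). Red chlorophyll catabolite reductase, which acts directly after pheophorbide a oxygenase, is represented by Phvul.008G280200 and Phvul.008G280300, with 1.06 (adjusted p = 0.0022) and 0.85 (adjusted p = 0.049) at 14 DAF and no call at the other ages. The chlorophyll b reductase gene Phvul.011G185400, annotated as NYC1-like, had 0.50 at 14 DAF (adjusted p = 0.030 by edgeR's quasi-likelihood test).

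Several of these calls were lost when 1 library was left out. For Phvul.009G086000 at 18 DAF and Phvul.008G280300 at 14 DAF, both close to the threshold, this included libraries of other ages. Omission of 1 library ended the call of Phvul.009G086000 at 10 DAF (golden replicate 3 or green replicate 2 of that age, adjusted p up to 0.057) and, in 13 of 18 omissions, at 18 DAF (adjusted p up to 0.25). It ended that of Phvul.002G236700 in 7 of 18 omissions at 10 DAF (up to 0.13) and, at 18 DAF, without golden replicate 2 or green replicate 3 (up to 0.087). It ended that of Phvul.007G238800 at 18 DAF without green replicate 3 (0.053), that of Phvul.008G280300 at 14 DAF in 13 of 18 omissions (up to 0.15) and that of Phvul.011G185400 at 14 DAF in 5 of 18 (up to 0.12). The calls of the stay-green gene between the lines, and those of the other genes at 14 DAF, held in all 18 omissions by edgeR's quasi-likelihood test. Under the 9 other settings tried, Phvul.009G086000 at 18 DAF lost its call in 6 (adjusted p up to 0.27). Phvul.007G238800 at 18 DAF lost it in 2 (up to 0.18), limma on log2(FPKM + 1) and the fit of only the groups compared. Phvul.008G280300 at 14 DAF lost it in 2 (up to 0.056), the replicate block and the absence of a filter. The fit of only the groups compared also ended the calls at 18 DAF of Phvul.002G153100 (0.066) and Phvul.002G236700 (0.17).

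**Figure D5:**
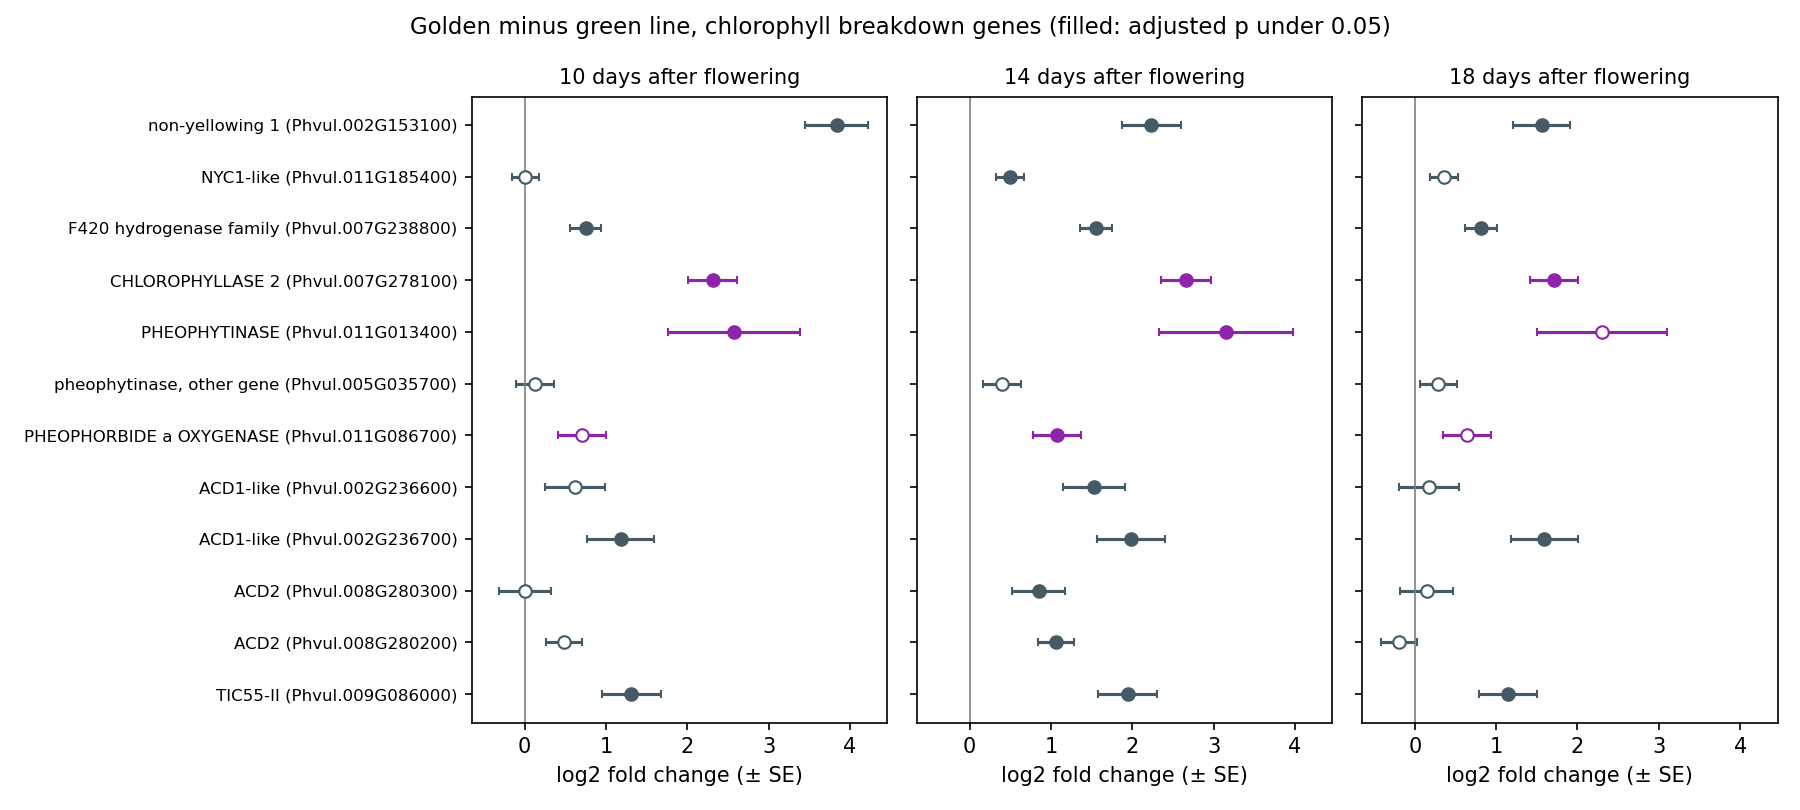
Log2 fold change (± SE) between golden and green at each age for the 3 enzymes (names in capitals) and 9 other breakdown genes; filled points have an adjusted p under 0.05, and chlorophyllase 1, near 0 FPKM, is not plotted. The stay-green gene non-yellowing 1 falls from 3.84 to 1.56 with age, and the second pheophytinase gene stays between 0.13 and 0.40.

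The photosystem and antenna genes, whose proteins bind chlorophyll, differed between the lines in the same direction as the enzymes. Of 34 such genes, 17, 30 and 29 were called higher in golden at 10, 14 and 18 DAF and 0 lower. Among all tested genes, 17.1%, 20.4% and 7.99% were called higher at these ages and 15.5%, 21.2% and 6.99% lower. The summed level of the 34 genes was 20004 to 43968 FPKM in golden and 6553 to 15842 FPKM in green, without overlap. Without golden replicate 2 of 18 DAF, 11 of the 34 were called higher at that age, and the median log2 difference was 1.04 in place of 1.72. The shares of all genes were then 6.57% higher and 5.90% lower. Of 19 chlorophyll synthesis genes, 5, 13 and 13 were called higher and 2, 0 and 1 lower, with 10 higher and 1 lower at 18 DAF without that library. The counts of these genes at 10 DAF lay near the shares of all genes and are no result about the list at that age. The summed level of the 19 genes overlapped between the lines at 10 DAF, with 1467 to 1793 FPKM in golden and 1514 to 1675 FPKM in green. At 14 and 18 DAF every golden library lay above the green ones of that age.

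Of 12 tested transcription factors tied to chlorophyll breakdown in Arabidopsis, 5, 6 and 1 were called higher and 0, 0 and 1 lower, beside the shares of 17.1%, 20.4% and 7.99% higher and 15.5%, 21.2% and 6.99% lower among all genes. Of 26 tested senescence-associated genes, 6, 5 and 1 were called higher and 3, 6 and 2 lower. Of 133 tested seed genes, 18, 18 and 8 were called higher and 12, 32 and 5 lower. Of 19 tested fruit genes, 3, 4 and 0 were called higher and 0, 1 and 1 lower. The counts of the senescence, seed and fruit genes lay near or below the shares of all genes and are no result about these lists. The median log2 difference of the seed genes was -0.30, -0.58 and -0.06 at 10, 14 and 18 DAF. Over all tested genes it was 0.02, -0.01 and -0.02. The medians were 0.34, 0.17 and 0.05 for the senescence-associated genes and 0.57, 0.26 and -0.01 for the fruit genes. Without golden replicate 2 of 18 DAF, the counts called higher and lower at that age were 0 and 1 of 12 transcription factors, 0 and 2 of 28 senescence-associated genes, 4 and 2 of 138 seed genes and 0 and 1 of 22 fruit genes. The shares of all genes were then 6.57% higher and 5.90% lower. Summed levels of the seed gene list were 6027 to 13204 FPKM in golden and 6452 to 11937 FPKM in green. Its 4 oleosin genes summed to 13.6 to 18.3 FPKM in golden and 38.4 to 76.8 FPKM in green at 10 DAF. At 14 DAF they summed to 4.42 to 10.5 and 19.4 to 49.8 FPKM, so golden was lower without overlap at both ages. At 18 DAF the sums were 4.27 to 10.3 and 8.03 to 21.35 FPKM, which overlapped. Most of the oleosin sum came from Phvul.008G144500 (2.44 to 76.65 FPKM), since the others reached at most 5.59 FPKM. The list takes in a superfamily whose description names lipid-transfer proteins beside seed storage 2S albumins. Of that superfamily, Phvul.008G008200 alone had a mean of 6803 FPKM in golden at 10 DAF, where the list summed to 11973 to 13204 FPKM. The list sum is therefore no measure of seed RNA alone. The part of green-tissue or seed RNA in the enzyme differences was not tested.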

How the data were processed

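The authors deposited 1 table that holds, per gene and library, an estimated count (also called expected count) and an FPKM value, per the file headers. All estimated counts deposited by the authors were whole already, so no rounding was needed, and the 36 value columns of the 18 libraries were used. The authors' FPKM divides fragments by transcript length and library depth, per the file headers. Paired-end NovaSeq reads came from poly(A) RNA, per the labels' protocols. For the aligner, counter, genome build and strand, the state is: not given in the sources used here. How reads of overlapping, antisense or near-identical genes were assigned is therefore not known. Unnamed genes, 635 in all, took 2.20% to 3.97% of counts. Gene descriptions and orthology terms are the table's own. A RefSeq gene table matched none of the 3 genes.

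The count test was edgeR's quasi-likelihood test (version 4.0.16, R 4.3.3), two-sided, after its expression filter (22805 genes kept, 2319 left out) and TMM scaling. The fit held 6 group means, no covariate and all 18 libraries, with a common dispersion of 0.1545 and 12 residual degrees. Benjamini-Hochberg adjustment covered all tested genes, at a threshold of 0.05 with no fold minimum. The SE given with an edgeR log2 difference is its absolute value divided by the square root of the test's F statistic. Levels are mean FPKM ± SD of 3 libraries. Replicates differed by a chi-square of at least 51.3 per gene over genes with 20 or more counts, so none repeated another. Alternatives were DESeq2 1.42.0, limma 3.58.1 on log2(FPKM + 1) and log2(FPKM + 0.1), other scalings and filters, only the groups compared, a replicate block, and the omission of each library. The list counts and ratios without golden replicate 2 of 18 DAF were added after the data were seen.

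The 3 genes and the gene lists were chosen with earlier results of these data known. Genes named are the 3 enzymes, every gene whose description matches a set of names of other pathway proteins, the 5 genes with the highest Pearson r with each enzyme on log2 scaled counts (prior count 2, mean of at least 1 FPKM) and the 2 genes of highest mean FPKM in each other list.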

Additional observations from a re-analysis of the deposited data

Results flagged for a closer look

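The genes below were singled out because the test of the difference between the lines' changes with age (golden change minus green change, log2) passed an adjusted p of 0.05 by edgeR's quasi-likelihood test. None is one of the 3 enzymes. In the breakdown pathway, the stay-green gene Phvul.002G153100 had -2.28 from 10 to 18 DAF (adjusted p = 0.011), with green means ± SD of 5.81 ± 0.879 and 31.3 ± 10.5 FPKM and golden means of 83.2 ± 10.0 and 83.3 ± 27.4 FPKM at those ages. The red chlorophyll catabolite reductase gene Phvul.008G280200 had -1.25 from 14 to 18 DAF (adjusted p = 0.031), with golden means of 9.70 ± 0.571 and 4.34 ± 0.918 FPKM and green means of 4.61 ± 0.426 and 5.48 ± 1.68 FPKM. That call was lost in 9 of 18 omissions of 1 library (adjusted p up to 0.079) and in the fit of only the groups compared (0.11). The call of Phvul.002G153100 held in all 18 omissions.

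Among genes of the synthesis and antenna lists, from 10 to 18 DAF, Phvul.005G083700 (protochlorophyllide oxidoreductase A) had 0.97, Phvul.001G108700 (Crd1, a cyclase of chlorophyll synthesis) had 1.06 and Phvul.002G196400 (chlorophyll a/b binding protein 1) had 1.37. Group means of the last at 10 and 18 DAF were 4408 and 7040 FPKM in golden and 4189 and 2843 FPKM in green. Omission of 1 library ended the call of Phvul.005G083700 in 6 of 18 cases (adjusted p up to 0.082), that of Phvul.001G108700 in 9 (up to 0.093) and that of Phvul.002G196400 in 4 (up to 0.061). Of 9 other settings, 5 ended the call of Phvul.001G108700 (up to 0.069) and 2 that of Phvul.002G196400 (up to 0.17). Of the ethylene-insensitive 3 factors, Phvul.006G011200 had -1.18 from 14 to 18 DAF and -1.58 from 10 to 18 DAF, and Phvul.006G011300 had -1.66 from 10 to 18 DAF. In the seed gene list, Phvul.008G008200 had -2.32 from 10 to 14 DAF and -3.23 from 10 to 18 DAF. Its description names bifunctional inhibitors, lipid-transfer proteins and seed storage 2S albumins. The call of Phvul.006G011200 from 14 to 18 DAF was lost in 11 of 18 omissions (adjusted p up to 0.10) and in 2 of 9 other settings (up to 0.11), the replicate block and the fit of only the groups compared. Its call from 10 to 18 DAF and those of Phvul.006G011300 and Phvul.008G008200 held in all of these.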

How the results depend on the processing

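Of 1050 values of the 3 enzymes under other settings, 993 kept their direction and side of the threshold, 17 gained a call, 8 lost one and 32 changed sign, the last all in age or interaction results that were not called. Pheophytinase at 18 DAF between the lines passed with DESeq2 (2.31) and with limma on log2(FPKM + 1), with or without a minimum mean of 1 FPKM (1.81 in both). In the other 6 settings, limma with a pseudocount of 0.1 among them, pheophytinase at that age did not pass. Its golden change from 10 to 18 DAF turned sign with total count scaling (-0.14), limma with a pseudocount of 1 (-0.32, also with the minimum) or 0.1 (-0.37) and the replicate block (-0.13), and its green one with the limma settings (-0.043, -0.30 and -0.043). Pheophorbide a oxygenase turned to -0.11 in each limma setting from 10 to 18 DAF in golden. With only the groups compared, chlorophyllase 2 at 18 DAF lost its call (1.73), pheophorbide a oxygenase at 10 DAF gained one (0.70), and the genes called fell from 3416 to 628 at 18 DAF and from 4723 to 2741 for 10 to 18 DAF in golden. That setting could not be fitted for the averaged ages, which need all groups. DESeq2 called 3977 genes for the interaction from 10 to 18 DAF, against 2258. The cause was not tested. Total count scaling moved the median of all genes to -0.13 at 18 DAF between the lines and to -0.14 from 10 to 18 DAF in golden.

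When 1 library at a time was left out, pheophytinase ranged from 2.44 to 2.77 at 10 DAF and 1.53 to 3.21 at 18 DAF between the lines. In golden it ranged from -1.05 to 0.12 for 14 to 18 DAF and -0.75 to 0.43 for 10 to 18 DAF. In green it ranged from -1.62 to 0.18 for 10 to 14 DAF, -0.30 to 1.89 for 14 to 18 DAF and -0.58 to 0.83 for 10 to 18 DAF. Its interaction ranged from -2.13 to 0.057 for 14 to 18 DAF and -1.04 to 0.64 for 10 to 18 DAF. Chlorophyllase 2 ranged in golden from -0.63 to 0.055 and -0.11 to 0.58, in green from 0.63 to 0.98 and 0.82 to 1.16, and in the interaction from -1.43 to -0.75 and -1.06 to -0.40, for 14 to 18 and 10 to 18 DAF in that order. Pheophorbide a oxygenase ranged from 0.58 to 0.79 at 10 DAF and 0.0009 to 0.91 at 18 DAF between the lines, in golden from -0.70 to 0.23 and -0.43 to 0.51, and in the interaction from -1.08 to -0.16 and -0.70 to 0.21, in the same order. Genes called ranged from 4767 (without golden replicate 3 of 10 DAF) to 8297 at 10 DAF between the lines, from 2726 (without golden replicate 1 of 10 DAF) to 5339 for 10 to 18 DAF in golden, and from 1088 (without green replicate 3 of 10 DAF) to 3317 for the interaction.

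Replicate numbers did not pair the samples. Same-numbered libraries of different groups deviated with correlations of -0.213 to 0.180 (median -0.028), 5 of 45 over 0.1, and 3 of 18 libraries correlated best with their own number. The replicate block changed no call of the 3 enzymes, and it gave 2838 genes at 18 DAF between the lines.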
